A study of Mus musculus with 3 samples.

Results

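Among the long noncoding RNA (lncRNA) genes of the RNAseq table, 173 autosomal genes had a mean of at least 100 counts over the 3 libraries, and their levels and differences are described here. They were chosen from the biotype, chromosome and counts that the authors deposited, so a high count is how they were picked and is no result. The table held 56748 genes, of which 11288 were lncRNA genes, and 3317 lncRNA genes had a count in at least 1 library. On any chromosome, 176 lncRNA genes reached the same mean. The genes nearest to the limit were Gm49797, with 87 counts with vehicle, 91 with IL-6 and 114 with OSM, and 2810002D19Rik, with 97, 86 and 112, which both lay just outside it. Just inside lay 3110056K07Rik, with 76, 79 and 147 counts in the same order, and Gm29686, with 93, 108 and 101.

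LncRNAs are transcripts that are usually spliced and often polyadenylated like messenger RNA but carry no long conserved open reading frame. Some act as RNAs in the nucleus, where they build nuclear bodies or silence neighbouring genes, some bind proteins or microRNAs in the cytoplasm, and some are hosts from whose introns small nucleolar RNAs (snoRNAs) or microRNAs are cut. Many are transcribed from the opposite strand of a coding gene or from its promoter in the other direction, and for most of them no function is known. In the heart, lncRNAs made from the myosin heavy chain locus and from loci of developmental transcription factors are known examples.

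The study examined the role of the kinase JAK1 in cardiomyocytes, mainly with mice that lack it in these cells. Its RNA sequencing sought genes that respond to oncostatin M (OSM) in adult mouse cardiomyocytes (ACMs). The paper treats these as putative effectors of JAK1 and the transcription factor STAT3. JAK1 was not deleted in the libraries used here, so they do not show which differences depend on it. ACMs from wild-type mice of 8 to 10 weeks were isolated without a Langendorff apparatus, plated for 3 to 4 h in medium with 5% serum, and then kept in serum-free medium in which every group, controls included, had 0.1% BSA and 10 mM of the contraction inhibitor BDM. The groups were vehicle, human IL-6 at 10 ng/mL and mouse OSM at 10 ng/mL, each for 16 h, both being cytokines that signal through the receptor chain gp130. RNA samples were pooled before poly-A selection, and each condition was represented by 1 library. The libraries held 24939980 counts with vehicle, 26362446 with IL-6 and 30773001 with OSM. There were no replicates, so no P-value is given and every comparison below compares libraries, not conditions. Intervals are 95% Clopper-Pearson intervals and cover counting error only, as no molecular identifiers are described and reads are not counted molecules. All 10 cardiomyocyte markers had counts in every library, with a summed level of 12390 to 16000 FPKM, the authors' count scaled by gene length and library size. The sum was highest with OSM, but the lowest marker level was 6.37 FPKM with vehicle, 6.42 with IL-6 and 2.05 with OSM. The cardiomyocyte sum thus does not describe every marker. The summed level of 6 macrophage markers was 13.8 FPKM with vehicle, 14.3 with IL-6 and 39.9 with OSM, with Ptprc and C1qa at 0 in each library. The highest macrophage marker alone had 12.01 FPKM with vehicle, 13.15 with IL-6 and 37.8 with OSM. In each library this sum thus mostly follows its highest marker and does not describe the markers as a set. The summed level was 5.92 to 6.24 FPKM for endothelial markers, 13.4 to 15.8 for smooth muscle and pericyte markers, 0.753 to 1.08 for fibroblast markers and at most 0.0738 for T cell markers. The highest smooth muscle and pericyte marker alone had 12.2 FPKM with vehicle, 12.1 with IL-6 and 14.3 with OSM. Whether any lncRNA difference came with other cells was not tested.

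The 173 lncRNA genes were mostly of low level and were spread over 19 autosomes, with 19 genes on chromosome 11. Their median level was 2.5 FPKM, against 6.64 FPKM for the 9162 protein-coding autosomal genes that passed the same limit on counts. Of the lncRNA genes, 22 had a mean of at least 10 FPKM and 27 lay under 1 FPKM. The median of their mean counts was 187.7, against 881.5 for the coding genes, and 95 of the 173 had fewer than 200 counts on average. Gene length ranged from 343 to 22436 bases with a median of 3001, against 4723.5 for the coding genes. Of the symbols, 58 were of the Gm type, 51 of the Rik type, 23 were identifiers alone, 11 were names of opposite-strand genes and 30 were other names.

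Counts were concentrated in few genes, as the 5 most counted held 49.2% of all counts in the 173. The most counted was ENSMUSG00000120364, named Gm57414 in GENCODE M39, a 2-exon gene that overlaps no coding gene, at chr11:31495794-31499656 on the plus strand. It had 21546 counts with vehicle, 23289 with IL-6 and 22880 with OSM, or 220 FPKM, 222 FPKM and 198 FPKM. It was the highest of the 173 by FPKM in each of the 3 libraries and held 24.2% to 24.8% of the counts of the 173.

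Together the 173 genes took 0.358% of all assigned counts with vehicle (0.3553 to 0.36), 0.358% with IL-6 (0.3558 to 0.3603) and 0.3% with OSM (0.2983 to 0.3022). The vehicle and IL-6 shares were alike within counting error, and the OSM share lay below both. In bulk RNA, fewer cells of a type and less RNA per cell cannot be told apart. Without ENSMUSG00000120364 the shares were 0.271% with vehicle, 0.27% with IL-6 and 0.226% with OSM, in the same order. Per assigned count, the OSM library was the lowest of the 3 for 88 of the 173 genes, vehicle for 44 and IL-6 for 41. OSM was the highest library for 52 genes, vehicle for 55 and IL-6 for 66. These tallies depend on the scaling. The median log2 fold change of the 173 for OSM against vehicle was −0.12 per assigned count and −0.066 with the scaling used for fold changes below. The same tallies over all genes are not given, so they are not read as particular to lncRNA genes.

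The genes of highest mean FPKM after ENSMUSG00000120364 joined named RNAs with anonymous loci. Norad, a cytoplasmic RNA that binds Pumilio proteins, is a 1-exon gene at chr2:156229980-156234921 and had 67.0 FPKM with vehicle, 69.0 with IL-6 and 47.8 with OSM. Malat1, an abundant nuclear RNA of splicing speckles, had 38.0 FPKM with vehicle, 30.4 with IL-6 and 21.0 with OSM. Both were lowest with OSM, and Malat1 was also lower with IL-6 than with vehicle.

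Gm44386 had 47.2, 43.7 and 55.2 FPKM with vehicle, IL-6 and OSM, and ENSMUSG00000120732, a 1-exon gene named Gm56936 in GENCODE M39, had 26.5, 29.3 and 29.9 FPKM. Gm10076 had 23.9, 20.7 and 40.6 FPKM in the same order. Of its transcript, 35.2% is found in transcripts of other genes at 97% identity or more, with the longest match in Rpl41, so its reads are uncertain. Gm11716 had 19.2, 17.97 and 33.7 FPKM, and Gm15543 had 14.2, 21.1 and 24.0 FPKM. By FPKM these 5 genes were all highest with OSM, though by less than 2-fold over vehicle. Per assigned count, ENSMUSG00000120732 was highest with IL-6. Its log2 fold change of OSM against IL-6 was 0.027 (−0.084 to 0.14), within counting error. That of Gm15543 was 0.18 (−0.014 to 0.38), also within counting error. The 5 genes are short. With the trend of fold change with gene length removed, the log2 fold change against vehicle was −0.48 for Gm44386 and −0.25 for ENSMUSG00000120732. It was −0.0056 for Gm10076, 0.13 for Gm11716 and 0.11 for Gm15543, so 2 of the 5 stayed above 0.

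Gm49708 had 25.1 FPKM with vehicle, 28.5 with IL-6 and 14.6 with OSM, with 68.5% of its transcript shared with other genes. AI506816 had 21.0, 21.5 and 24.3 FPKM with 42.8% shared. Norad also shared 51.3% of its sequence with other annotated loci, and in all 8 of the 173 genes had over 50% of the transcript elsewhere, which makes their counts depend on how multiply mapped reads were treated.

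**Figure D1:**
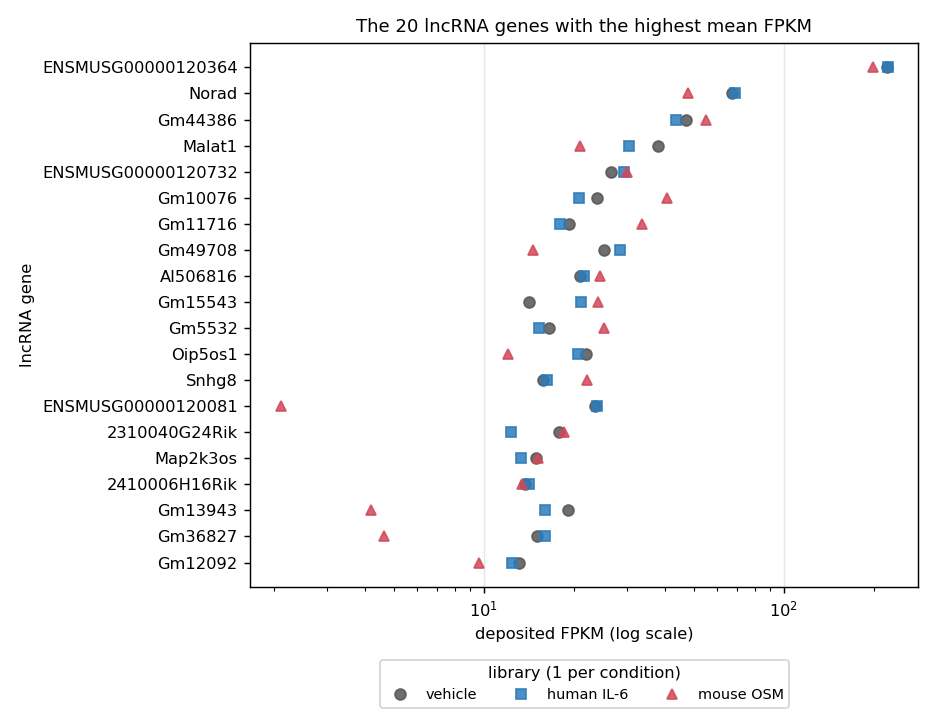
Deposited FPKM, on a log axis, of the 20 lncRNA genes with the highest mean FPKM, with 1 point for each library (vehicle, human IL-6, mouse OSM). ENSMUSG00000120364 stands at 198 to 222 FPKM in the 3 libraries, most vehicle and IL-6 points lie close together, and ENSMUSG00000120081, Gm13943 and Gm36827 lie far lower with OSM.

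In the comparison of OSM with vehicle, which addresses the study's question, 5 of the 173 lncRNA genes (2.89%) were higher and 11 (6.36%) were lower by a counting interval that lay wholly beyond 2-fold. The same rule called 3.7% of all 15537 genes compared higher and 5.46% lower, and 2.63% and 3.83% of the well-counted coding genes. The shares of the lncRNA genes were thus near those of all genes. Their median log2 fold change, from counts scaled by TMM (trimmed mean of M values), was −0.066 (quartiles −0.50 and 0.27), against −0.0014 for all genes and 0.023 for the coding genes, with 73 genes above 0 and 100 below. Removing a trend with gene length moved the median to −0.24. By the point estimate alone, 144 of the 173 lay within 2-fold. The interval excluded 0 for 109 of them (63.0%), against 78.8% of the coding genes, whose counts were higher. The interval typically reached 0.31 to either side on the log2 scale, so differences under about this size could not be seen for a typical gene of the set. LncRNA genes compared but under 100 counts had a median of −0.25 over 1265 genes.

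**Figure D2:**
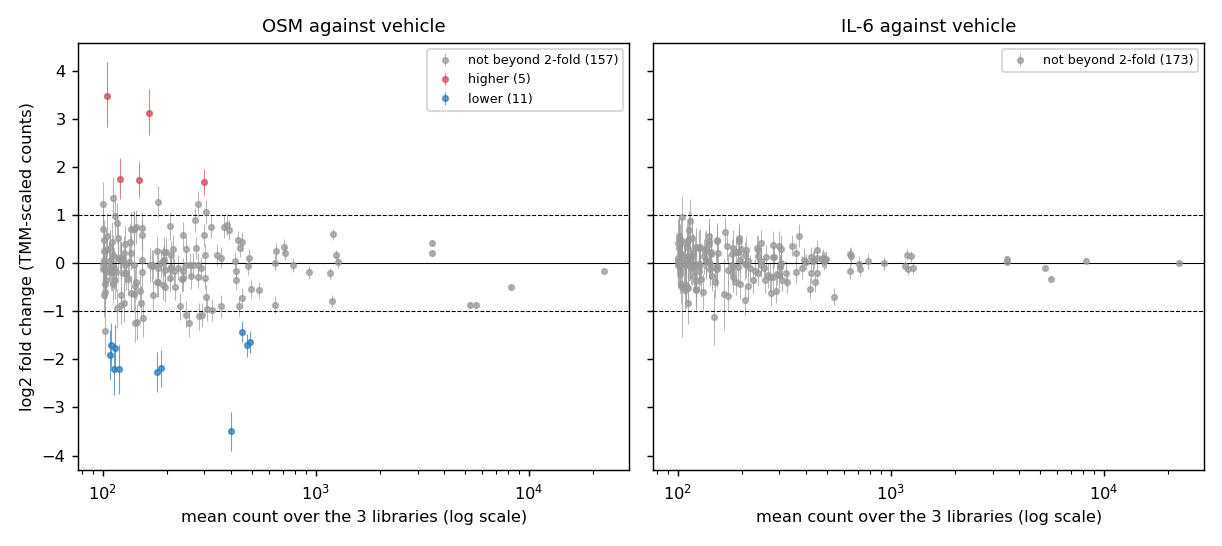
Log2 fold change of TMM-scaled counts against the mean count (log axis) for the 173 lncRNA genes, OSM against vehicle on the left and IL-6 against vehicle on the right. Bars are 95% counting intervals and dashed lines mark 2-fold, and 5 genes lie higher and 11 lower wholly beyond it with OSM and none with IL-6.

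The 5 genes called higher with OSM were all of the Gm, Rik or identifier type, which most of the 173 are, and 4 of them overlapped no coding gene. The largest difference was that of ENSMUSG00000120500, named Gm56754 in GENCODE M39, with 2 exons at chr14:63202082-63203713 on the minus strand. It had 21 counts with vehicle, 16 with IL-6 and 276 with OSM, or 0.509, 0.362 and 5.66 FPKM. Its log2 fold change was 3.47 (2.83 to 4.18) against vehicle. ENSMUSG00000120078, named Gm40124 in GENCODE M39, lies at chr3:115430736-115435238 on the minus strand, 68844 bases from the nearest coding gene, S1pr1. It had 41 counts with vehicle, 28 with IL-6 and 426 with OSM, and its log2 fold change was 3.13 (2.67 to 3.63). In both genes the IL-6 library was the lowest of the 3, though its difference from vehicle was within counting error.

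The other 3 genes called higher lay between 3-fold and 4-fold. Gm50419 had 60 counts with vehicle, 62 with IL-6 and 240 with OSM, which is 1.75 on the log2 scale (1.34 to 2.19). 1200007C13Rik, at chr2:167669613-167675566, had 81, 40 and 321 counts, a log2 fold change of 1.74 (1.38 to 2.11). E230013L22Rik, at chr8:11527897-11530243 on the plus strand, had 145, 198 and 552 counts, a log2 fold change of 1.68 (1.41 to 1.96). Exons of E230013L22Rik lie over 845 exon bases of Rab20, a small GTPase gene on the opposite strand that had 644 counts with vehicle, 645 with IL-6 and 2352 with OSM (1.62, 1.49 to 1.75). Here and below, a value in parentheses after counts is the log2 fold change of OSM against vehicle, with its interval where given. The sources used here do not give whether the counting used the strand, so the reads of these overlapping genes cannot be told apart.

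The promoters of these genes were read for the core motif of STAT factors, TTCNNNGAA, a palindrome that reads the same on both strands. It was searched from 250 bases before to 50 bases after the deposited gene start in GRCm39. It stood in 8.67% of all 56654 promoters, in 6.95% of those of the coding genes, in 9.12% of those of all autosomal lncRNA genes and in 9 of the 173 (5.2%). Of the 5 genes higher with OSM, 2 held it, and of the 11 lower genes, 1. A match is a string of letters in this window and not a bound site. The 3 promoters are printed because they are the ones with a match among the called genes, 5′ to 3′ on the strand of the gene, with the motif in capitals. They are those of ENSMUSG00000120500 (chr14:63203664-63203963, minus strand, motif 58 bases before the start), ENSMUSG00000120078 (chr3:115435189-115435488, minus strand, motif from 13 bases after the first base) and Gm10638 (chr8:87471831-87472130, plus strand, motif 140 bases before the start).
ENSMUSG00000120500: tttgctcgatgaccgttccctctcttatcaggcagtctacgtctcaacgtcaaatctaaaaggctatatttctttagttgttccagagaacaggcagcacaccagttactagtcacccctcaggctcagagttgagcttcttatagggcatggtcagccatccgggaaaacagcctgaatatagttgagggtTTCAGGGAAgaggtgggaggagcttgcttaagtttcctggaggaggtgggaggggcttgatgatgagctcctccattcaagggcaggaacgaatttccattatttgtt
ENSMUSG00000120078: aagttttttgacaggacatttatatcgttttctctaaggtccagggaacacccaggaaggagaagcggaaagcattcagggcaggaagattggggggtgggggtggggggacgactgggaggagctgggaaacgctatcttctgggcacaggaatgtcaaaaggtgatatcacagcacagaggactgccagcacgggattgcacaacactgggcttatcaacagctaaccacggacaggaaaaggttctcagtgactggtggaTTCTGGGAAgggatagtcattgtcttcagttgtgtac
Gm10638: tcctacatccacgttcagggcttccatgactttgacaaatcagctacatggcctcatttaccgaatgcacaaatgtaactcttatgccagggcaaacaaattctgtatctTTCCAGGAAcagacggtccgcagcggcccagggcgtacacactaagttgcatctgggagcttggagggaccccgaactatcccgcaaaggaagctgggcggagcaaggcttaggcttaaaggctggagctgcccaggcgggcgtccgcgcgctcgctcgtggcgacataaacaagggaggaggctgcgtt
The promoter of Gm10638, which was lower with OSM, is the only one of the 173 with the stricter palindrome TTCCNGGAA. This stricter form stood in 0.978% of all promoters.

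The 11 genes called lower with OSM were again all of the Gm, Rik or identifier type, and 5 of them overlapped a coding gene. ENSMUSG00000120081, named Gm57354 in GENCODE M39, is a 1-exon gene of 923 bases at chr11:31820874-31821796 on the plus strand. It had 546 counts with vehicle, 596 with IL-6 and 58 with OSM, or 23.4, 23.8 and 2.10 FPKM. Its log2 fold change was −3.48 (−3.90 to −3.09), the lowest value among the 173. It ends 415 bases before the deposited start of Cpeb4, which lies on the same strand and encodes an RNA-binding protein that regulates translation. Cpeb4 had 4654 counts with vehicle, 5060 with IL-6 and 3072 with OSM, which is −0.85 on the log2 scale, so that both were lowest with OSM and by different amounts. Cpeb4 and the other neighbours of genes without overlap were named after their values were seen, and not all went with their lncRNA gene. Hipk2, 5298 bases from ENSMUSG00000120732, had −2.25 on the log2 scale for OSM against vehicle, where the lncRNA gene had 0.17.

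The next genes were lower by a log2 fold change of about 2.2. D830005E20Rik, at chr10:33098341-33132414, had 246 counts with vehicle, 232 with IL-6 and 61 with OSM, which is −2.26 on the log2 scale (−2.69 to −1.85). Its exons overlap 1179 exon bases of Trdn on the opposite strand, the gene of triadin, a protein of the calcium release complex, which had 7080, 7513 and 6333 counts (−0.41). The triadin gene thus differed far less than the lncRNA gene within it.

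Gm13943, at chr2:77145095-77147379, had 166, 149 and 43 counts with vehicle, IL-6 and OSM, a log2 fold change of −2.20 (−2.72 to −1.70). Gm10097, a 1-exon gene, had 146, 153 and 38 counts, a log2 fold change of −2.19 (−2.74 to −1.67). It lies on the opposite strand within the span of Syne1 without shared exon bases. Syne1, the gene of a nuclear envelope protein, had 2578, 2818 and 1161 counts (−1.40). In that pair both genes were lowest with OSM.

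Gm10638, the gene with the stricter palindrome above, had 271 counts with vehicle, 221 with IL-6 and 71 with OSM, which is −2.18 on the log2 scale (−2.58 to −1.80). It overlaps 501 exon bases of Siah1a, a ubiquitin ligase gene on the opposite strand with 577, 718 and 553 counts (−0.31). Gm10638 was also somewhat lower with IL-6 than with vehicle, by a log2 fold change of −0.39 (−0.66 to −0.13).

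Gm49390 had 132, 151 and 42 counts with vehicle, IL-6 and OSM (−1.90, −2.44 to −1.39), and ENSMUSG00000120423 had 142, 152 and 50 (−1.75, −2.25 to −1.28). Gm36827, at chr10:56846178-56858328 and 504153 bases from the nearest coding gene, had 569, 646 and 207 counts (−1.71, −1.94 to −1.47). ENSMUSG00000121204 had 153, 119 and 56 counts (−1.70, −2.17 to −1.25) and lies in the span of Rmdn2 on the same strand, which had 292, 270 and 304 counts (−0.19, −0.43 to 0.047). Between IL-6 and vehicle the interval included 0 for these genes apart from ENSMUSG00000121204 (−0.46, −0.82 to −0.11).

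9230112J17Rik, at chr9:60431250-60453185, had 587 counts with vehicle, 661 with IL-6 and 223 with OSM, which is −1.64 on the log2 scale (−1.87 to −1.42). Its neighbour Thsd4, 1921 bases away, had 238, 219 and 97 counts (−1.54). The eleventh gene, Gm26782, named after its values were seen, had 571, 530 and 252 counts (−1.43, −1.65 to −1.21), and 80.5% of its transcript is shared with other annotated genes.

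**Figure D3:**
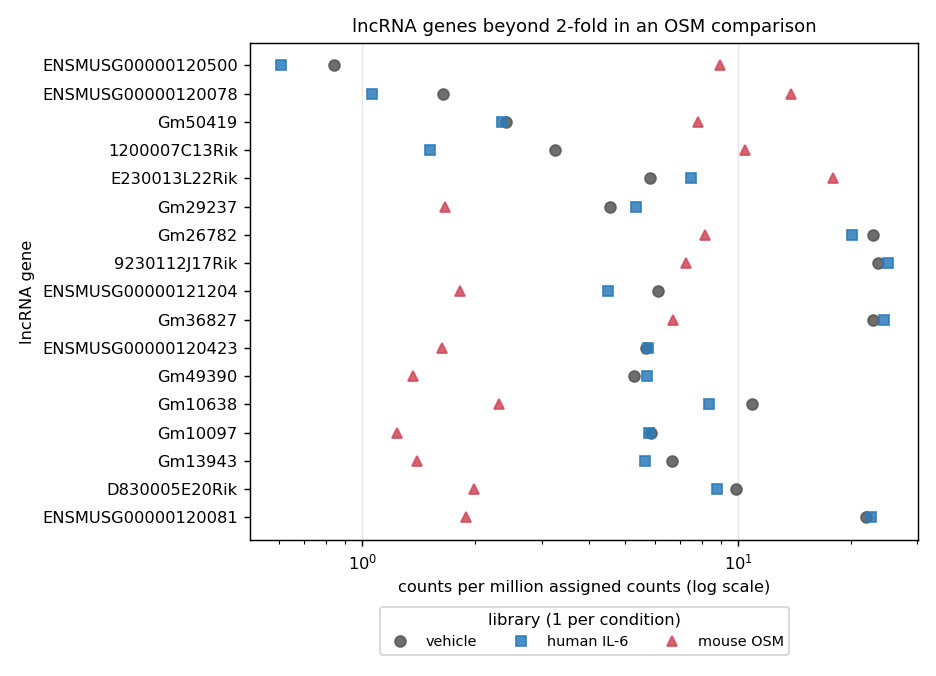
Counts relative to all assigned counts of the library (CPM), on a log axis, in the 3 libraries for the 17 lncRNA genes called in OSM against vehicle or OSM against IL-6, each shape and colour being 1 library. For the 5 upper genes the OSM point lies to the right of both others, and for the 12 lower genes it lies to the left.

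The IL-6 library was compared with vehicle under the same rule, and 0 of the 173 lncRNA genes were called in either direction. Background calls were 1.77% higher and 1.74% lower of 15472 genes, but only 0.0327% and 0.0109% of the well-counted coding genes. With edgeR's exact test and the dispersion (BCV) set to 0.2, 0 of the 173 were called. Of all 19632 genes tested, that setting called 0.55% higher and 0.621% lower. With a BCV of 0.4 the test called 0 of all 19632 genes, so that setting tells nothing about the 173. The median log2 fold change was 0.015 (quartiles −0.18 and 0.22), with 89 genes above 0 and 84 below, and the interval excluded 0 for 64 genes (37.0%). Values ranged from −1.12 for 1200007C13Rik (81 and 40 counts, −1.70 to −0.55) to 0.95 for 1810044D09Rik (65 and 135 counts, 0.52 to 1.40), a gene named after its values were seen. The low IL-6 value of 1200007C13Rik stood beside its high value with OSM. The vehicle library enters both comparisons, so the 2 sets of values are given side by side and not correlated. The 5 genes higher with OSM had IL-6 values of −1.12 to 0.35, and the 11 lower genes had values of −0.46 to 0.094.

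OSM was also compared with IL-6, where 5 of the 173 genes (2.89%) were higher and 10 (5.78%) lower, against 4.24% and 5.44% of 15544 genes compared and 2.67% and 3.56% of the well-counted coding genes. The 5 higher genes were those higher than vehicle, with log2 fold changes of 1.34 to 3.97, and 9 of the 10 lower genes had also been called against vehicle. The largest values were 3.97 (3.24 to 4.79) for ENSMUSG00000120500, 3.79 (3.23 to 4.39) for ENSMUSG00000120078 and −3.50 (−3.92 to −3.11) for ENSMUSG00000120081. ENSMUSG00000121204 (−1.23, −1.71 to −0.76) and Gm26782 (−1.21, −1.44 to −0.996) were not called in this comparison. Gm29237, named after its values were seen, was called here alone, with 114, 141 and 51 counts with vehicle, IL-6 and OSM and a log2 fold change of −1.61 (−2.10 to −1.14) against IL-6. The OSM library is shared by both OSM comparisons.

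Of the 173 genes, 22 were in lists of lncRNAs with known roles, and 0 of the 22 were called in any comparison. For OSM against vehicle the same rule called 3.7% of all genes higher and 5.46% lower. With only 22 genes, the 0 is not read as a trait of the listed lncRNAs. The 2 lncRNAs of nuclear bodies lay on opposite sides of 0 with OSM under every scaling. Malat1 had 6715 counts with vehicle, 5765 with IL-6 and 4375 with OSM, giving −0.87 (−0.92 to −0.81) on the log2 scale for OSM and −0.32 (−0.37 to −0.27) for IL-6. Neat1, the scaffold of paraspeckles, had 2836, 3223 and 4507 counts and a log2 fold change of 0.42 (0.35 to 0.49) for OSM and 0.085 (0.012 to 0.16) for IL-6. Neat1 is one of the longest genes of the set with 21163 bases. Without the length trend described below its OSM value was 1.37, and it was then called.

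The snoRNA hosts carry snoRNAs in their introns, and the spliced RNA measured here is what remains of the transcript. Of 18 autosomal hosts in the table, 11 were among the 173. Their log2 fold change with OSM ranged from −0.35 to 0.83 with a median of 0.30, and 8 lay above 0. With the length trend removed the median was −0.051 and 5 lay above 0, so the direction of the group depends on this removal. Length went less closely with fold change over the 173 (Spearman's rho −0.12) than over coding genes (−0.52).

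Gas5, the most counted host, had 1189 counts with vehicle, 1187 with IL-6 and 1428 with OSM, which is a log2 fold change of 0.017 (−0.095 to 0.13). Snhg6 had 289, 326 and 552 counts (0.69, 0.48 to 0.90), Snhg8 had 342, 379 and 565 (0.48, 0.28 to 0.67) and Snhg15 had 75, 115 and 158 (0.83, 0.42 to 1.24). At the other end, Snhg12 had 442, 411 and 412 counts (−0.35, −0.55 to −0.15).

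The remaining hosts lay between these. Snhg1 had 539, 644 and 762 counts (0.25), Zfas1 had 439, 509 and 498 (−0.066), Snhg5 had 206, 227 and 302 (0.30) and Epb41l4aos had 180, 198 and 264 (0.31). Snhg17 had 84, 113 and 136 counts (0.45) and Snhg20 had 117, 88 and 122 (−0.19). With IL-6 the hosts ranged from −0.51 to 0.52 with a median of 0.049.

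Gas5 runs opposite to Zbtb37, a zinc finger gene, and the exons of both share 716 bases. Zbtb37 had 448 counts with vehicle, 463 with IL-6 and 117 with OSM, or −2.18 (−2.49 to −1.89) on the log2 scale for OSM, while Gas5 was nearly level.

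Of 11 genes in the table listed as microRNA hosts by their symbol, 2 were among the 173. By position, 2900076A07Rik, Gm11613, Snhg20 and Dleu2 of the 173 also hold microRNA genes. Mir22hg, at chr11:75352365-75357502 on the plus strand, had 190 counts with vehicle, 251 with IL-6 and 471 with OSM. Its log2 fold change was 1.06 (0.82 to 1.31), a point estimate just past 2-fold with an interval that reaches below it, and 0.72 with the length trend removed. Its IL-6 value was 0.30 (0.024 to 0.58). Exons of Mir22hg share 206 bases with Tlcd2 on the same strand, which had 668, 539 and 1319 counts (0.73, 0.60 to 0.87), so some reads can belong to either gene. Mir99ahg, the longest of the 173 genes with 22436 bases, had 261, 235 and 303 counts (−0.032, −0.28 to 0.21), and 0.96 with the length trend removed.

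Mature microRNAs that Mir22hg and Mir99ahg hold are printed from RefSeq (GRCm38.p6) with the seed, bases 2 to 8, in capitals. They show which targeting sequences lie in the host transcripts, and mature microRNAs were not measured by these poly-A libraries. Dleu2, a host named outside the lists, is added because its 2 main arms share 1 seed, and it had 97 counts with vehicle, 105 with IL-6 and 119 with OSM (0.047, −0.35 to 0.45).
miR-22-5p: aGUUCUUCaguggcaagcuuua
miR-22-3p: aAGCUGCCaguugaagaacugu
miR-125b-5p: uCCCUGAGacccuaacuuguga
miR-99a-5p: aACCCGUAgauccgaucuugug
let-7c-5p: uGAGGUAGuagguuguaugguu
miR-15a-5p: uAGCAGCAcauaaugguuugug
miR-16-5p: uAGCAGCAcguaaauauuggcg
The first pair lies in Mir22hg, the next 3 in Mir99ahg and the last pair, with the shared seed AGCAGCA, in Dleu2. The 3 microRNAs of Mir99ahg have 3 different seeds.

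Of 9 imprinted lncRNAs in the table, Peg13 and Airn were among the 173. Peg13, which lies within Trappc9, had 505 counts with vehicle, 573 with IL-6 and 415 with OSM (−0.53, −0.72 to −0.34), while Trappc9, a trafficking complex gene, had 989, 1102 and 1046 (−0.17, −0.29 to −0.040). Airn, which silences the paternal Igf2r allele in many tissues, had 165, 161 and 192 counts (−0.029, −0.34 to 0.28). Igf2r, on the opposite strand, had 4995, 5262 and 2610 counts, a log2 fold change of −1.18 (−1.25 to −1.12). Airn was thus nearly level where Igf2r was lower with OSM.

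Of 11 genes in the table from a list named heart and muscle, Norad, Oip5os1 and Mhrt were among the 173. The list was set by gene name and does not mean that expression is limited to heart or muscle. Norad had 8371 counts with vehicle, 9236 with IL-6 and 7049 with OSM (−0.50, −0.54 to −0.45). Oip5os1, also called Cyrano, which holds a conserved site for miR-7, had 5966, 6004 and 3864 counts (−0.87, −0.93 to −0.82). Both were lowest with OSM, and their IL-6 values were 0.042 and −0.090 on the log2 scale.

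Mhrt, or Myheart, is a cardiac lncRNA transcribed opposite to Myh7 at chr14:55206104-55211920 and known to bind the chromatin remodeller Brg1. It had 96 counts with vehicle, 126 with IL-6 and 187 with OSM, or 0.71 (0.35 to 1.08) on the log2 scale for OSM and 0.29 (−0.10 to 0.69) for IL-6. Myh7, the gene of the beta-myosin heavy chain, had 511, 739 and 791 counts, a log2 fold change of 0.38 (0.22 to 0.55) with OSM. Their exons share 2555 bases, so reads of one strand may be counted for the other.

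Of 8 autosomal lncRNAs linked to growth, p53 or stress in the table, 4 were among the 173, namely Norad, Gas5, Pvt1 and Crnde. Pvt1, the neighbour of Myc, had 172 counts with vehicle, 140 with IL-6 and 137 with OSM (−0.58, −0.91 to −0.24), and its value was −0.0099 with the length trend removed. Crnde had 88, 124 and 96 counts (−0.12, −0.55 to 0.31). None of the 8 lncRNAs of the inflammation list in the table reached the mean of 100 counts.

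**Figure D4:**
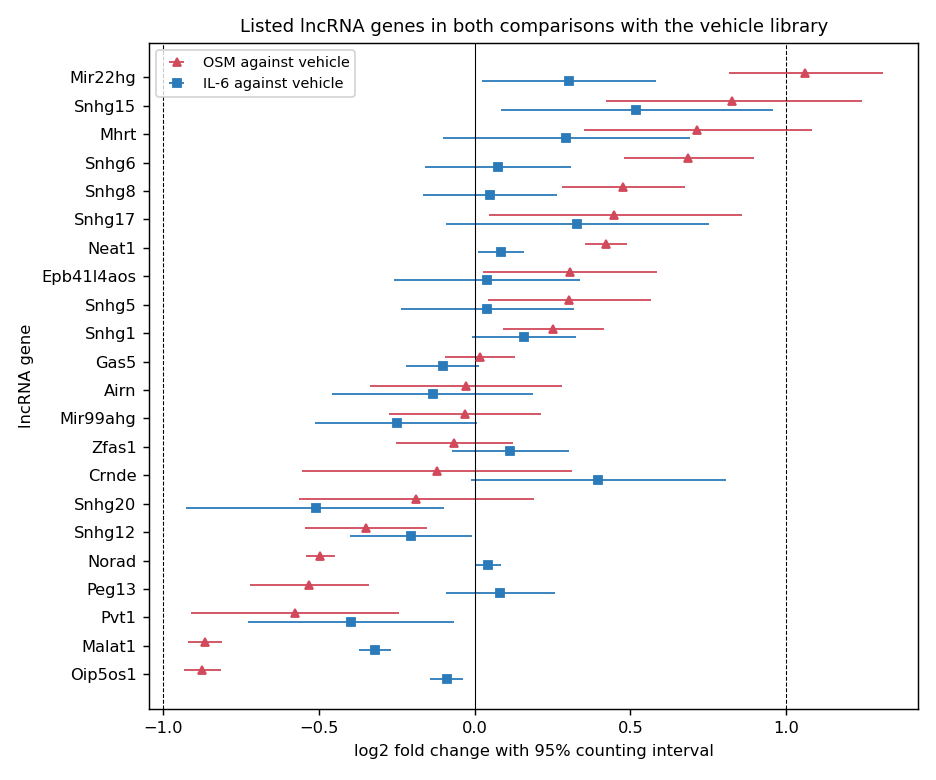
Log2 fold change with its 95% counting interval for the 22 listed lncRNA genes, OSM against vehicle (triangles) and IL-6 against vehicle (squares), with dashed lines at 2-fold. No interval lies wholly beyond 2-fold, Malat1 and Oip5os1 are lowest at −0.87 with OSM, and Mir22hg is highest at 1.06.

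Overlap with coding genes was read from the deposited starts, ends and strands. Of the 173, 104 overlapped no coding gene, 59 overlapped one on the opposite strand and 10 one on the same strand. Called genes with OSM were 4 higher and 6 lower among the 104, 1 higher and 4 lower among the 59, and 0 higher and 1 lower among the 10. The medians were −0.11, −0.041 and −0.14. Among the genes whose deposited spans overlapped a coding gene, exons met coding exons by GENCODE M39 in 54. In 15 the spans overlapped without shared exon bases. Some of the 104 also share M39 exon bases with a coding gene, such as Snhg1 with 743. Of the 54, 1 was called higher and 3 lower, and of the 15, 2 were lower. Over all genes compared, 3.7% were called higher and 5.46% lower with OSM, and no difference between the overlap groups is read from these counts.

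The fold change of each lncRNA gene was set beside that of its coding partner. Across 56 opposite-strand pairs Spearman's rho was 0.22, across 10 same-strand pairs −0.030, across 52 pairs without overlap and within 5000 bases 0.22, and across 14 pairs over 50000 bases apart 0.45. These are descriptions across genes that share both libraries and are not independent. Of the 173, 52 had a 5′ end within 1000 bases of that of a coding gene on the opposite strand. Their median log2 fold change was −0.043 with 1 higher and 2 lower, against −0.088 with 4 higher and 9 lower for the other 121.

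Structure and length varied among the called genes. Of 22 genes with 1 exon, 0 were higher and 4 lower with OSM. Of 41 with 2 exons 2 were higher and 1 lower, and of 108 with at least 3 exons 3 were higher and 6 lower. Over the 173 the shares were 2.89% higher and 6.36% lower, and over all genes compared 3.7% and 5.46%. These counts rest on few called genes and are not read as an effect of exon number. The 173 were cut into 4 groups of like number by length. In the shortest group (343 to 1932 bases) the median log2 fold change with OSM was 0.18, in the second (2001 to 3001) −0.10, in the third (3010 to 5095) −0.12 and in the longest (5245 to 22436) −0.21. Coding genes of the same lengths had medians of 0.49, 0.27, 0.094 and −0.26. Across genes, Spearman's rho of length and log2 fold change was −0.12 over the 173 lncRNA genes and −0.52 over the 9162 coding genes. The part of gene length in single lncRNA differences was not tested beyond removing the trend. Removing it moved the median of the 173 from −0.066 to −0.24, and whether it corrects lncRNA genes too far was not tested. With IL-6 the lncRNA medians of the 4 groups ran from −0.014 to 0.043.

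**Figure D5:**
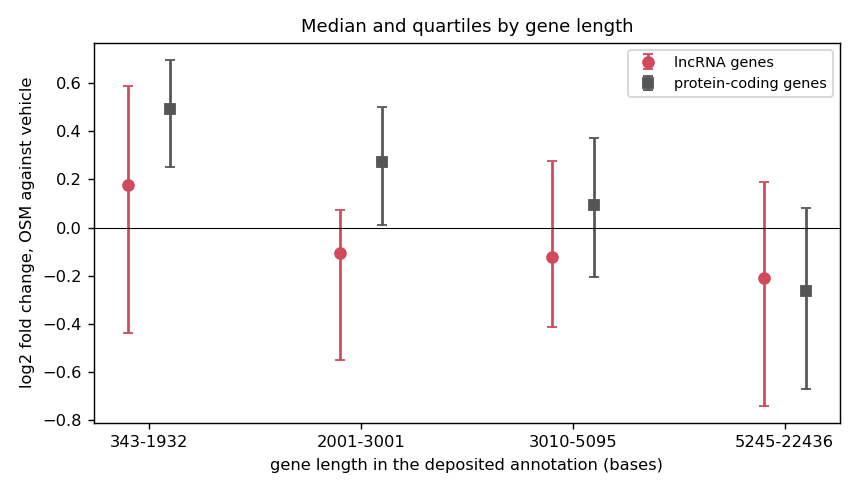
Median (points) and quartiles (bars) of the log2 fold change of OSM against vehicle for lncRNA genes (circles) and protein-coding genes (squares) in 4 length groups set by the 173 lncRNA genes. Coding medians run from 0.49 for the shortest to −0.26 for the longest genes, and the lncRNA medians lie between 0.18 and −0.21.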

How the data were processed

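The authors mapped paired reads to GRCm39 and assigned fragments to genes, and per the labels used fastp, HISAT2 2.2.1, featureCounts 2.0.6 and edgeR 4.0.16. The paper names other featureCounts and edgeR versions. The sources used here do not give the strandedness. The authors deposited a table of raw counts and a table of FPKM values for the same genes. The deposited FPKM is the count per gene length and per 1 constant for each library. It was used for levels, and the counts for all comparisons. Every per-sample column matched a sample.

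Each pair of libraries was scaled by TMM (edgeR 4.0.16, R 4.3.3) over genes with at least 10 counts. Log2 fold changes are ratios of these scaled counts. Their 95% intervals are exact binomial (Clopper-Pearson), conditioned on the total of both counts, and a gene was called when the whole interval lay beyond 2-fold. A floor of 3 counts is 0.12, 0.114 and 0.0975 CPM with vehicle, IL-6 and OSM. Of the 173 genes, 171 were found in GENCODE M39, 25 with the same start and end, and 1 is protein coding there. M39 gave exons, and shared sequence was found with blastn 2.17.0 (97% identity over at least 50 bases). MicroRNA sequences are from RefSeq. Calls were tested on simulated data, which cannot show the spread between cultures that 1 library per condition leaves unknown.

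The genes described and the lists were chosen with earlier results of these data known. Named were the 10 lncRNA genes of highest mean FPKM, up to 10 called in each direction for OSM against vehicle and 5 for the other pairs, all listed genes, those next to the limit on counts, and the overlapping coding gene of up to 10 of these. Alternatives were DESeq2 1.42.0 and other scalings, other limits on counts and folds, edgeR's exact test with an assumed BCV of 0.2 or 0.4, removal of overlapping genes and of a length trend.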

Additional observations from a re-analysis of the deposited data

How the results depend on the processing

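No paired analysis was possible because each condition had 1 library. Counts of called genes stayed within 1.5 times of those given under DESeq2, total count and FPKM scaling, without a minimum count, with an assumed BCV of 0.2 in edgeR and with the length trend removed. For OSM against vehicle, a 4-fold limit left 2 higher and 1 lower, the point estimate alone gave 10 higher and 19 lower, and an assumed BCV of 0.4 gave 0 and 0. Over all genes these settings called 0.811% and 0.837%, 10.0% and 13.2%, and 0.187% and 0.0456%. A mean of at least 50 counts gave 9 higher and 21 lower of 330 genes, a mean of at least 200 gave 1 and 4 of 78, and genes without overlap gave 6 lower of 104. For IL-6 against vehicle, the point estimate gave 1 lower, against 6.72% higher and 6.61% lower of all genes. A mean of at least 50 counts gave 1 higher of 330 genes there. For OSM against IL-6, a 4-fold limit left 3 higher and 1 lower, the point estimate gave 19 lower, and a BCV of 0.4 gave 2 higher and 0 lower. Over all genes these called 0.971% and 0.798%, 12.8% lower, and 0.248% and 0.0709%. In that comparison a mean of 50 gave 8 higher and 21 lower of 330 genes (2.42% and 6.36%). A mean of 200 gave 1 and 3 of 78 (1.28% and 3.85%), and genes without overlap gave 6 lower of 104 (5.77%). The main rule gave 2.89% and 5.78% of the 173. The shares of counts with vehicle, IL-6 and OSM were 0.401%, 0.403% and 0.337% for a mean of at least 50, 0.31%, 0.309% and 0.256% for 200, 0.296%, 0.295% and 0.241% without overlap, and 0.271%, 0.27% and 0.226% without ENSMUSG00000120364, an alternative chosen after seeing the data. These follow from the number of genes kept. The alternatives without shared sequence and without exon overlap were also chosen after seeing the data and gave counts within 1.5 times. Exon overlap was judged only for genes whose deposited spans overlapped a coding gene. With the length trend removed, Neat1 (1.37 against vehicle and 1.24 against IL-6) and Gm49708 (−1.14 and −1.31) were called in both OSM comparisons and ENSMUSG00000121204 (−1.65) against IL-6, and E230013L22Rik (0.99) was no longer called against IL-6. The cause was not tested. With 1 library per condition, differences between cultures cannot be told apart from the treatments.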
